A study of Homo sapiens with 2 samples.

Results

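The 8 genes described here encode core pluripotency factors: POU5F1, NANOG, SALL4, PRDM14, ZFP42, DPPA2, DPPA4 and UTF1. They were chosen by name, and all 8 were found among the 22474 genes of the count tables. The cells were single H9 cells, an established human embryonic stem cell line, profiled by Smart-seq2, which copies polyadenylated RNA along its length and amplifies it without molecular barcodes. The 25 feeder-free extended pluripotent stem cells (ffEPSCs) had been converted from H9 embryonic stem cells, and the 16 embryonic stem cells (ESCs) were H9 cells of the starting state. Both states thus share 1 parental line, and each was deposited as 1 sample. The labels name no culture medium or passage. Cells of a sample are not replicates, so the states cannot be tested against each other and no p-value is given.

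ffEPSC cells held 12507469 to 17811209 gene counts and ESC cells 11714517 to 19965639. Cell names carry a set number that the labels do not explain. ffEPSC cells came from set 1 (3 cells), set 2 (9), set 3 (2) and set 4 (11), and ESC cells from set 1 (7) and set 3 (9). Only sets 1 and 3 hold both states. In 4 ESC cells the total lay under 15000000 counts, at 11714517 to 14683949, and the other 12 had 16349317 or more. The 4 cells had reads on a median of 11964 genes, against 13318 in the other 12. These 4 are called the shallow ESC cells, a limit applied to ESCs alone and chosen with earlier results of these data known. Of the ffEPSC cells, 15 of 25 also lay under 15000000 counts and were kept, and their POU5F1 levels were 518 to 1388 CPM, against 63.5 to 218 CPM in the shallow ESC cells. Values without the shallow ESC cells are given where they matter. Levels are counts scaled to a total of 1000000 gene counts (CPM), either in a cell or over the summed counts of a state. A log2 ratio divides ffEPSC by ESC levels, with 1 CPM added to both. The 95% intervals describe counting error alone, because amplified reads do not count separate molecules.

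Pluripotent cells keep a self-sustaining network of transcription factors. POU5F1 encodes OCT4, a POU-domain factor that binds DNA together with SOX2 at joined octamer and SOX sites, and NANOG encodes a homeodomain factor that acts with them. SALL4 is a zinc finger factor that recruits the NuRD deacetylase complex. PRDM14 is a zinc finger protein that sustains human ESC identity and, in mice, germ cell fate. ZFP42, also known as REX1, is a zinc finger protein used as a marker of undifferentiated cells. DPPA2 and DPPA4 are SAP-domain chromatin proteins that act as a pair in mouse ESCs, and UTF1 is a chromatin-associated protein of undifferentiated embryonic cells.

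The genes lie on different chromosomes apart from DPPA2 and DPPA4, which neighbour each other on chromosome 3 with 9623 bases between them. RefSeq promoter sequences on GRCh38.p14 matched 5 of the 8 genes. The 250 bases before the annotated start are shown for 4 of them, because NANOG carries the site that OCT4 and SOX2 share and because the neighbours DPPA2 and DPPA4, like UTF1, differed in how they behaved between the states. Capitals mark the motifs that were searched on both strands: TTTGCAT (octamer core), ACAATG (SOX core) and GGGCGG (GC box). The joined form TTTGCATNACAATG contains the octamer and SOX cores.
NANOG, chr12:7789152-7789401, plus strand: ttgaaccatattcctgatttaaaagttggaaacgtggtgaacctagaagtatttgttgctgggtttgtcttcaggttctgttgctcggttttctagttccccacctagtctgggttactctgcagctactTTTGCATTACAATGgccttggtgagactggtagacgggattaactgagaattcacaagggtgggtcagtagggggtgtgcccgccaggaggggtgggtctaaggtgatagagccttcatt
DPPA2, chr3:109316518-109316767, minus strand: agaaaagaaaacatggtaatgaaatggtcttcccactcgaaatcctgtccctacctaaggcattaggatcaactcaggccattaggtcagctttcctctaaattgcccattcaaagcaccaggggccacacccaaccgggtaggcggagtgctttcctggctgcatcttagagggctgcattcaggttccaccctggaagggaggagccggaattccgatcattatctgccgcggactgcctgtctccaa
DPPA4, chr3:109337547-109337796, minus strand: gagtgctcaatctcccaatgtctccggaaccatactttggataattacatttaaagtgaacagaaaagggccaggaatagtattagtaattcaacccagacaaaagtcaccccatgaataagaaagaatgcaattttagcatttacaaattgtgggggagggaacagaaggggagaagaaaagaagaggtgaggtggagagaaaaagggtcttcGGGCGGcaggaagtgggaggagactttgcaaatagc
UTF1, chr10:133229967-133230216, plus strand: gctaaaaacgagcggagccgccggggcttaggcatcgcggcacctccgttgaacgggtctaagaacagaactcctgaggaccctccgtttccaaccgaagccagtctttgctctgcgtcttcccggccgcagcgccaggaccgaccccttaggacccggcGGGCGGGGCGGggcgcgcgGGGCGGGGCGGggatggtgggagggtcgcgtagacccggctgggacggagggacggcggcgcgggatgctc
The joined form was found in 2 of 35116 promoters of this length (0.0057%), of which NANOG was 1, 107 to 120 bases before the start. The octamer core alone was in 3.94% of promoters, the SOX core in 9.29% and the GC box in 42.6%. UTF1 held 4 GC boxes in overlapping pairs between 61 and 90 bases before the start, and 32 CpG dinucleotides, more than 90.5% of promoters. DPPA2 held 7 CpGs and DPPA4 held 3, against a median of 11 over all promoters. DPPA2 matched none of the motifs, and DPPA4 held 1 GC box. The promoter of ZFP42, which is not printed, held 3 GC boxes and 23 CpGs. These matches are descriptions of the letters in these windows.

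Between the states, 2 of the 8 genes differed by 2-fold or more over all cells, and both were higher in ffEPSCs: UTF1 and DPPA2. Over all genes that reached 5 CPM in either state, 14.1% of 10825 passed 2-fold in either direction and 8.3% were higher in ffEPSCs. UTF1 was under 5 CPM in ESCs and passed that floor only through ffEPSCs. None of the 8 was 2-fold lower, against 5.84% of all genes. The other 6 lay between -0.43 and 0.40 on the log2 scale. The median over the 8 was 0.26, against 0.04 over all genes, and it was 0.052 without the shallow ESC cells. All 8 genes overlapped between the cells of the states, while 0.212% of all genes did not overlap.

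**Figure D1:**
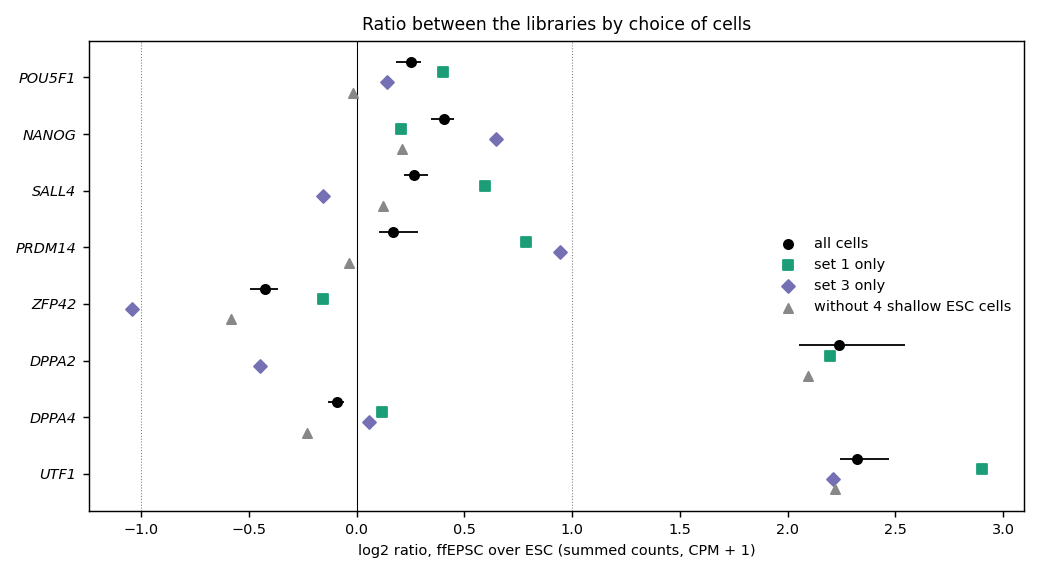
Log2 ratio of ffEPSC over ESC for each gene on the x axis, from summed counts (CPM + 1), over all cells, within set 1, within set 3 and without the 4 shallow ESC cells; horizontal lines span the ratios with each cell left out in turn, and dotted lines mark 2-fold. UTF1 lay beyond 2-fold under each choice, while DPPA2 lay at -0.45 within set 3 and at 2.24 over all cells.

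POU5F1 (chromosome 6, 31164337 to 31180731 on GRCh38, minus strand) was at 1061 CPM in ffEPSCs (interval 1058 to 1065) and 892 CPM in ESCs (888 to 896), a log2 ratio of 0.25. The lowest, median and highest ffEPSC cells had 518, 1076 and 1388 CPM, and the ESC cells had 63.5, 984 and 1309.5 CPM. The shallow ESC cells made up the low end, at 63.5 to 218 CPM, and the other 12 ESC cells had 496 to 1309.5 CPM. Without them the ratio was -0.02. The ratio was 0.40 within set 1 and 0.14 within set 3. Of the 400 pairs of an ffEPSC and an ESC cell, the ffEPSC cell was higher in 60%, and in 46.7% once the shallow cells were left out.

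NANOG (chromosome 12, 7787794 to 7799141, plus strand) was at 175 CPM in ffEPSCs (174 to 177) and 132 CPM in ESCs (131 to 134), a log2 ratio of 0.40. ffEPSC cells ran from 87.2 through a median of 168 to 287 CPM, and ESC cells from 29.3 through 159 to 193 CPM. The ESC cells left a gap: 7 cells lay at 29.3 to 68.9 CPM, 9 cells lay at 156 CPM or more, and none lay between. In ffEPSCs the widest gap was below the highest cell, between 231 and 287 CPM, so no such split was seen there. Of the 7 ESC cells below the gap, 4 were the shallow cells and 3 were deep cells of set 3. In those 3 cells NANOG stood at 66.5 to 68.3 CPM while POU5F1 was at 496 to 1251 CPM, DPPA4 at 1077 to 1215 CPM and ZFP42 at 126 to 256 CPM. SALL4 was at 216 to 272 CPM and PRDM14 at 104 to 229.8 CPM in the same cells, so NANOG lay inside the range of the shallow cells there, while POU5F1, SALL4 and DPPA4 lay above all 4 of them. The NANOG ratio was 0.21 within set 1, 0.65 within set 3 and 0.21 without the shallow cells.

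Both genes have near-identical copies elsewhere in the genome, and the treatment of reads that match several places is not stated by the labels. The coding sequence of NANOGP8, a copy on chromosome 15, aligned to the NANOG transcript over 918 bases with 5 mismatches (99.5% identity). The window of 60 bases from the start codon is shown with its single difference in capitals, to show how little separates the pair.
NANOG: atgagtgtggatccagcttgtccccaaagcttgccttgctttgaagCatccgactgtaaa
NANOGP8: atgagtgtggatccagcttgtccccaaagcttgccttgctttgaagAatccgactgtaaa
NANOGP8 carried 63.9% as many counts as NANOG in ffEPSCs and 64.8% as many in ESCs. Across cells its level followed NANOG with a Pearson r of 0.942 over 25 ffEPSC cells and 0.956 over 16 ESC cells. The POU5F1 copies POU5F1P3 and POU5F1B, at 98.1% and 98.0% identity over their aligned bases, carried 2.31% and 1.38% of the POU5F1 counts in ffEPSCs and 2.22% and 1.19% in ESCs. Reads of a parent gene and of its copy cannot be told apart from these counts. Adding the listed copies gave 1101 CPM in ffEPSCs and 923 CPM in ESCs for POU5F1, and 288 and 218 CPM for NANOG, and left both log2 ratios at 0.25 and 0.40. Any reads counted at both places would enter these sums more than once.

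**Figure D2:**
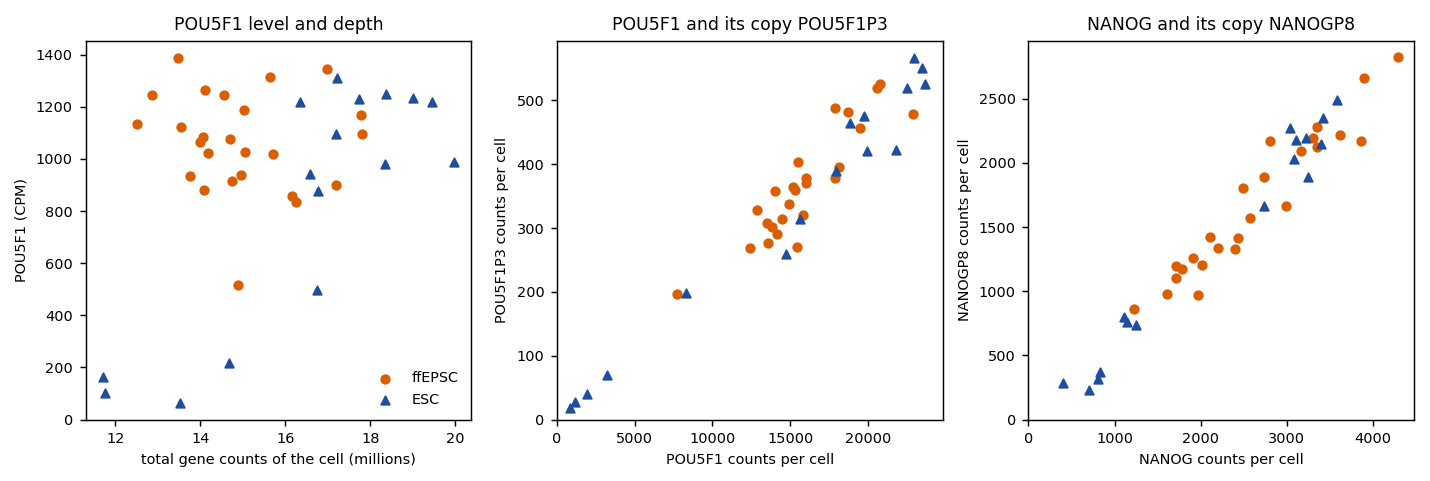
POU5F1 level in CPM against the total gene counts of each cell (left), POU5F1P3 counts against POU5F1 counts (middle) and NANOGP8 counts against NANOG counts (right), with 25 ffEPSC cells as circles and 16 ESC cells as triangles. The 4 ESC cells with 63.5 to 218 CPM of POU5F1 have the lowest ESC totals, and both copies follow their parent genes along a line in cells of either state.

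SALL4 (chromosome 20, 51782331 to 51802520, minus strand) was at 299.8 CPM in ffEPSCs (298 to 302) and 249 CPM in ESCs (247 to 251), a log2 ratio of 0.27. Its ffEPSC cells ran from 129 through 308 to 502 CPM and its ESC cells from 61.2 through 252 to 380.4 CPM. The ratio had no common sign across sets, at 0.59 within set 1 and -0.16 within set 3. The other 196 genes of chromosome 20 at 20 CPM or above in either state had a median log2 ratio of 0.37, so SALL4 lay 0.10 below its chromosome. The chromosomes of the other 7 genes had medians of -0.11 to -0.02. A shift of the other chromosome 20 genes was taken for each ffEPSC cell. It was their mean log2 difference from ESCs, less that of all autosomes. Across the 25 ffEPSC cells SALL4 correlated with this shift at r = 0.503. The cell with the lowest shift (-0.20) also had the lowest SALL4 level (129 CPM). The part of that shift in the SALL4 level was not tested.

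PRDM14 (chromosome 8, 70051651 to 70071693, minus strand) was at 195 CPM in ffEPSCs (194 to 197) and 174 CPM in ESCs (172 to 175), a log2 ratio of 0.17. That value hid a difference between sets of ffEPSC cells. The 3 ffEPSC cells of set 1 had 259 to 372 CPM and the 2 of set 3 had 267 to 370.0 CPM, whereas cells of set 2 had 101 to 239 CPM and cells of set 4 had 46.0 to 306 CPM. Within sets 1 and 3, the only ones with both states, the ratios were 0.78 and 0.94. ESC cells ran from 2.89 through 157 to 369 CPM. Without the shallow ESC cells the ratio over all cells was -0.03. The set numbers and the states overlap too little to say which of the values stands for the states.

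ZFP42 (chromosome 4, 187995771 to 188005050, plus strand) had the lowest ratio of the 8, at 138 CPM in ffEPSCs (137 to 139) and 186 CPM in ESCs (184 to 188), a log2 ratio of -0.43. ffEPSC cells ran from 26.5 through 143 to 248 CPM and ESC cells from 20.3 through 182 to 291 CPM. No ffEPSC cell was above the highest ESC cell. The direction held in each choice of cells, with -0.16 within set 1, -1.04 within set 3 and -0.58 without the shallow ESC cells. Within set 3 the 2 ffEPSC cells had 26.5 and 143 CPM, so the value past 2-fold there rests on a single low cell.

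UTF1 (chromosome 10, 133230274 to 133231558, plus strand) showed the largest difference and was the least abundant of the 8. It was at 6.19 CPM in ffEPSCs (5.94 to 6.45) and 0.437 CPM in ESCs (0.361 to 0.524), a fold of 14.2 (counting interval 11.8 to 17.2) and a log2 ratio of 2.32 after adding 1 CPM. All 25 ffEPSC cells had reads, with 0.672, 6.24 and 15.9 CPM in the lowest, median and highest. Of the 16 ESC cells 10 had no reads, and the highest had 2.57 CPM. Taking 3 counts as the limit for a cell with 0, up to 0.256 CPM is allowed at the lowest ESC depth. In the median cell 98.4% of non-zero counts were even, so that limit is likely too low. With each cell thinned to 11000000 counts, 24 of 25 ffEPSC cells and 2 of 16 ESC cells reached 1 CPM (24 and 3 unthinned). Of the ffEPSC cells 19 lay above every ESC cell. The log2 ratio was 2.90 within set 1, 2.21 within set 3 and 2.22 without the shallow ESC cells, all 4 of which had 0 counts. In ESCs the gene rests on 116 counts in all.

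DPPA2 (chromosome 3, 109293788 to 109316517, minus strand) was at 57.5 CPM in ffEPSCs (56.7 to 58.3) and 11.4 CPM in ESCs (10.9985 to 11.8), a fold of 5.04 (4.85 to 5.24) and a log2 ratio of 2.24. ffEPSC cells ran from 0 through 56.6 to 206 CPM, with 22 of 25 at 1 CPM or more. ESC cells ran from 0 through 9.27 to 42.1 CPM, with 10 of 16 at 1 CPM or more. The difference was set-dependent. It was 2.196 within set 1, where the 3 ffEPSC cells had 0.952, 47.3 and 63.4 CPM, and -0.45 within set 3, where the 2 ffEPSC cells had 0 and 19.9 CPM. In sets 2 and 4, which hold ffEPSC cells only, the medians were 64.9 and 56.6 CPM. Without the shallow ESC cells the ratio was 2.10.

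DPPA4 (chromosome 3, 109326141 to 109337572, minus strand), the partner of DPPA2, did not share its difference. It was at 930.1 CPM in ffEPSCs (927 to 933) and 989 CPM in ESCs (986 to 993), a log2 ratio of -0.09. ffEPSC cells ran from 461 through 949 to 1319.7 CPM and ESC cells from 423 through 1084 to 1266 CPM. The sign was not stable, at 0.12 within set 1, 0.06 within set 3 and -0.23 without the shallow ESC cells. Per kilobase of exon, DPPA2 stood at 22.3% of DPPA4 in ffEPSCs and 4.16% in ESCs, with a median over cells of 22.2% and 2.88%. The nearest listed coding gene on the DPPA2 side, MORC1, was under 1 CPM in both states, too low to compare. Beyond it DZIP3 had a log2 ratio of -0.75, and past DPPA4 NECTIN3 had -0.35, so neither DZIP3 nor NECTIN3 shared the DPPA2 ratio. DZIP3 ends at 108694846 and NECTIN3 starts at 111070071, so both lie far from the pair.

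DPPA2 and UTF1 were both higher in ffEPSCs, and most ffEPSC cells held both. Both reached 1 CPM in 21 of 25 ffEPSC cells and 3 of 16 ESC cells. Their levels correlated at r = -0.056 across the ffEPSC cells and 0.37 across the ESC cells. In ESCs 7 cells had DPPA2 alone at 1 CPM, no cell had UTF1 alone, and 6 had neither. In ffEPSCs 1 cell had DPPA2 alone and 3 had UTF1 alone.

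**Figure D3:**
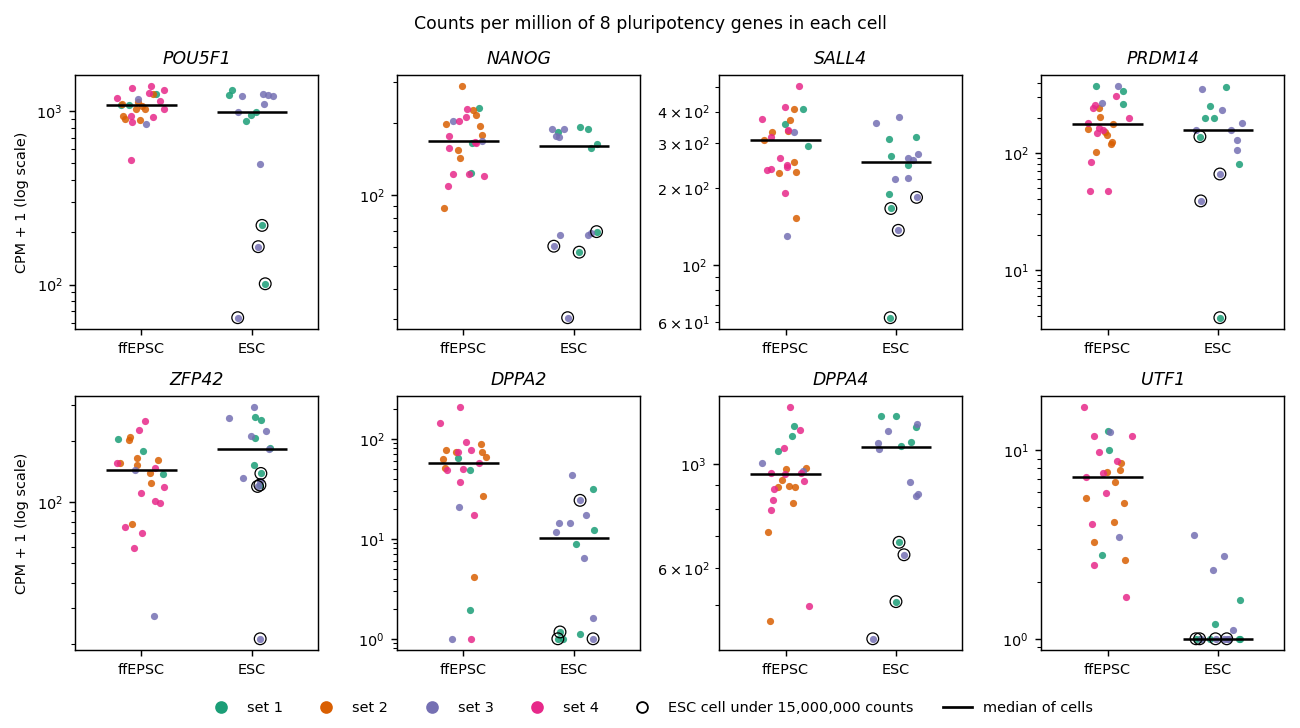
CPM + 1 of each gene in each cell on log axes whose ranges differ between panels, for 25 ffEPSC and 16 ESC cells, coloured by set, with shallow ESC cells ringed and the median of the cells as a bar. UTF1 had reads in all 25 ffEPSC cells and 6 of 16 ESC cells, and the NANOG panel shows the ESC cells parted between 68.9 and 156 CPM.

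Per kilobase of exon in GENCODE version 29, POU5F1 was the highest of the 8 in both states, at 366 CPM per kb in ffEPSCs and 308 in ESCs, followed by DPPA4 at 186 and 198. POU5F1 exceeded DPPA4 in 24 of 25 ffEPSC cells and in 11 of 16 ESC cells. All 4 shallow ESC cells were among the exceptions, and POU5F1 was higher in 11 of the 12 deep ESC cells. PRDM14 followed at 80.0 CPM per kb in ffEPSCs and 71.1 in ESCs. ZFP42 and SALL4 were level in ffEPSCs (52.0 and 51.9), with ZFP42 higher in 9 of 25 cells. In ESCs ZFP42 was instead level with PRDM14 (70.0), which was higher in 7 of 16 cells. DPPA2 was at 41.6 and NANOG at 32.5 in ffEPSCs, where DPPA2 was higher in 16 of 25 cells, and DPPA2 was at 8.24 and NANOG at 24.5 in ESCs, where NANOG was higher in 15 of 16 cells. UTF1 was last in both, at 5.35 and 0.378 CPM per kb. The place of NANOG depended on its copies: with their counts added, a setting chosen after seeing the data, it stood at 53.3 CPM per kb in ffEPSCs and 40.4 in ESCs. It was then above DPPA2 in 18 of 25 ffEPSC cells (9 without the copies) and in 15 of 16 ESC cells, so it ranked over DPPA2 in both states. Any reads counted both at NANOG and at a copy would enter that sum more than once.

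Spread between cells differed widely among the genes. In ffEPSCs the SD of log2(CPM + 1) was smallest for POU5F1 (0.30), DPPA4 (0.34), NANOG (0.41) and SALL4 (0.46). It was 0.71 for ZFP42, 0.79 for PRDM14, 0.87 for UTF1 and 2.10 for DPPA2. The median SD of the 6544 genes with 20 CPM or more was 0.75, and 6.39% of them had a smaller SD than POU5F1, against 99.2% for DPPA2. In ESCs the SD was 1.46 for POU5F1, 1.57 for PRDM14, 0.88 for NANOG, 0.89 for ZFP42, 0.64 for SALL4 and 0.49 for DPPA4. Most of that came with the shallow cells: without them POU5F1 had an SD of 0.39, PRDM14 of 0.65, SALL4 of 0.30 and DPPA4 of 0.20. NANOG had an SD of 0.64 in the 12 deep cells, since 3 of them lay below the gap. DPPA2 varied as widely in ESCs (2.01) as in ffEPSCs, and 1.80 without the shallow cells.

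Inside each state the 8 genes make 28 pairs, and correlations across cells of 1 library are given as descriptions. In ffEPSCs 2 of 28 pairs (7.14%) had a Pearson r of 0.5 or more, against 1.65% of all pairs of genes at 20 CPM or above. The pairs were SALL4 with ZFP42 (0.620) and SALL4 with POU5F1 (0.507). SALL4 with ZFP42 was 0.468 by Spearman's rho, and SALL4 with POU5F1 was 0.493 with set means removed. The same ffEPSC cell, of set 3, was lowest in both SALL4 (129 CPM) and ZFP42 (26.5 CPM). UTF1, at 6.19 CPM in ffEPSCs, lay below that floor of 20 CPM. The median over the 28 was 0.113, against 0.000286 over all pairs, and 9 of 28 were below 0. POU5F1 with ZFP42 (0.405) and POU5F1 with NANOG (0.396) came next. The lowest values were ZFP42 with UTF1 (-0.368), DPPA2 with PRDM14 (-0.341) and DPPA2 with its partner DPPA4 (-0.312). The 5th percentile over all pairs was -0.354, so the last 2 lay inside the spread of ordinary gene pairs. With set means removed they were -0.150 and -0.244.

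In ESCs 13 of 28 pairs (46.4%) had r of 0.5 or more, against 13.2% of all pairs, with a median of 0.496. None was below 0. All 13 were among POU5F1, NANOG, SALL4, PRDM14, ZFP42 and DPPA4, led by POU5F1 with DPPA4 (0.881) and POU5F1 with SALL4 (0.833). These levels moved with depth: r with the log10 of the cell total was 0.875 for POU5F1, 0.775 for DPPA4 and 0.770 for SALL4, against a median of 0.221 and a 95th percentile of 0.828 over all genes. In the 12 deep ESC cells the same r was 0.317 for POU5F1, -0.186 for DPPA4 and 0.191 for SALL4. It was 0.128 for NANOG and 0.0904 for PRDM14 there, against 0.640 and 0.744 over the 16 ESC cells. ZFP42 had 0.532 in the deep cells, against 0.610 over the 16. The relation with depth was thus weaker or reversed without the 4 shallow cells, though little changed for ZFP42. Those 4 were also the lowest ESC cells in POU5F1, so leaving them out narrows the range of both depth and level. In ffEPSCs r with the log10 of the cell total lay between -0.145 and 0.276 for the 8 genes. With each ESC cell thinned to 11000000 counts, 13 of 28 pairs reached 0.5 and the median r was 0.496, as without thinning. Without the 4 shallow ESC cells, 4 of 28 pairs reached 0.5 (14.3%), against 6.65% of all pairs in the same 12 cells, and the median was 0.184. POU5F1 with DPPA4 was then -0.34. POU5F1 with SALL4 stayed at 0.613, and the other 3 were SALL4 with UTF1 (0.602), POU5F1 with DPPA2 (0.543) and PRDM14 with ZFP42 (0.515). In ESCs UTF1 (0.437 CPM) and DPPA2 (11.4 CPM) lay below the floor of 20 CPM that held for all pairs. Among the other 6 genes, 2 of 15 pairs reached 0.5 in the deep cells, with a median of 0.0913. POU5F1 with SALL4 was thus at 0.507 in ffEPSCs and 0.613 in the deep ESC cells, whereas SALL4 with ZFP42 was at 0.620 and 0.0913. What sets the shallow cells apart was not tested.

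**Figure D4:**
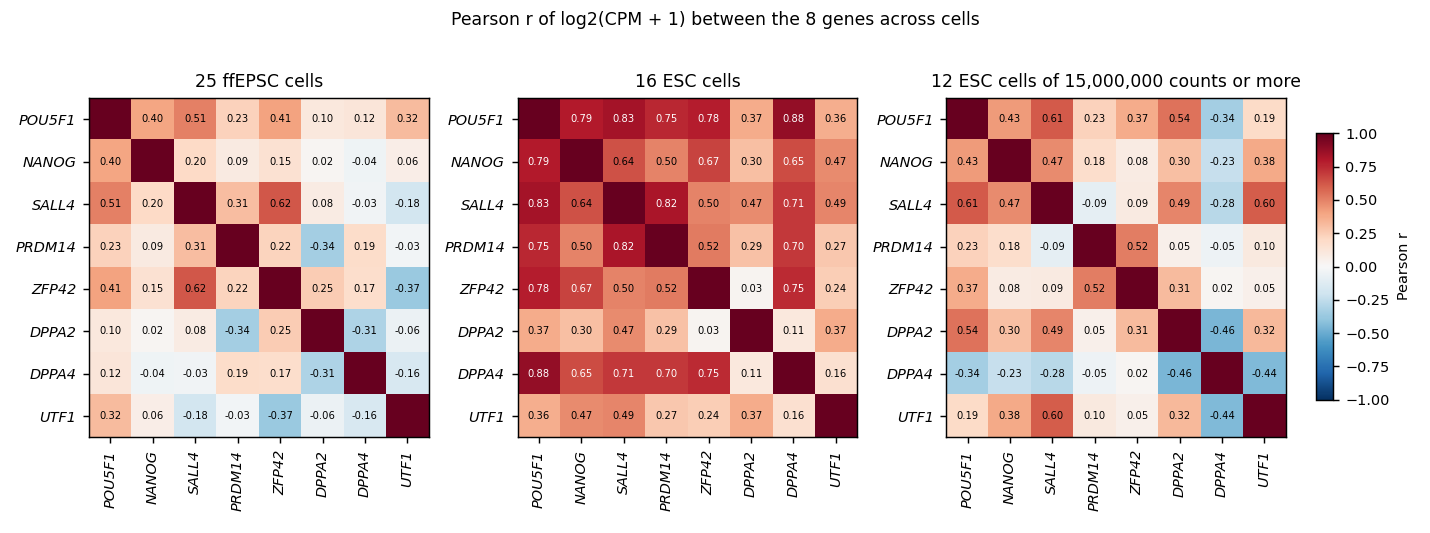
Pearson r of log2(CPM + 1) for each pair of the 8 genes across 25 ffEPSC cells (left), 16 ESC cells (middle) and the 12 ESC cells with 15000000 counts or more (right), from -1 in blue to 1 in red. The broad block of high values in the 16 ESC cells, 13 pairs at 0.5 or more, is 4 pairs in the 12 deep ESC cells, and the ffEPSC panel holds 2.

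Genes whose cell-to-cell pattern was most like each member were sought among 5886 genes with 20 CPM or more in both states, by the mean of the r in 25 ffEPSC cells and the r in 16 ESC cells. DPPA2 and UTF1 were below that floor in ESCs. For POU5F1 they were TRAF7, which encodes a TRAF-family ubiquitin ligase (mean r 0.870), SHISA5 (0.837) and LPAR2, a lysophosphatidic acid receptor gene (0.832), and all 3 had r of 0.765 or more in the 12 deep ESC cells. For NANOG they were its copy NANOGP8 (0.949), FAM222B (0.7296) and CNN2, which encodes a calponin (0.694), with 0.986, 0.538 and 0.744 in the deep ESC cells. SALL4 was most like SLC29A2, a nucleoside transporter gene (0.782), STK25 (0.779) and TMEM63A (0.757), whose r in the deep ESC cells was 0.481, 0.158 and 0.442. ZFP42 was most like CTTN, the cortactin gene (0.764), CEP250 (0.755) and DDX56 (0.751), with 0.528, 0.349 and 0.637 there. PRDM14 was most like TOMM34 (0.752), VCP (0.746) and MARCKS (0.736), with -0.304, 0.36 and 0.424 in the deep ESC cells. DPPA4 was most like RAB7A (0.751), AIF1L (0.735) and NIPSNAP1 (0.704), with 0.283, -0.251 and -0.186 in the deep ESC cells. The 12 deep ESC cells were among the 16 used to choose these genes, so r in the deep cells is not a separate check.

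Other parts of the network were read from lists. All of the lists were chosen with earlier results of these data known, so their shares past 2-fold are descriptions and not tests. Of 31 other transcription factor genes of pluripotency all were listed and 24 had 5 CPM or more in at least 1 state. Of these, 8 (33.3%) were 2-fold or more higher in ffEPSCs, against 8.3% of all genes, and 1 (4.17%) was lower, against 5.84%. The median was 0.20, against 0.04 over all genes. Of the 8, 5 were under 5 CPM in ESCs and passed the floor only through ffEPSCs. With no floor 9 of 31 were higher and 2 lower. Members with the largest ratios included VENTX, a homeobox gene, at 35.9 CPM in ffEPSCs and 5.30 CPM in ESCs (2.55), and SOX15, at 49.7 and 1.45 CPM (4.37). SOX2, the DNA-binding partner of OCT4, was at 44.9 and 33.9 CPM (0.39). Its ratio was 1.06 within set 1, past 2-fold, 0.57 within set 3 and 0.28 without the shallow ESC cells.

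Of 28 chromatin partner genes of OCT4, NANOG and SALL4, 26 were measured, and 2 were 2-fold or more higher in ffEPSCs and none lower, with a median of 0.23. That is 7.69% of the list, near the 8.3% of all genes, and both genes were under 5 CPM in ESCs and passed the floor only through ffEPSCs. CBFA2T2, whose product is a corepressor that binds PRDM14 in mouse ESCs, was at 18.2 CPM in ffEPSCs and 3.24 CPM in ESCs (2.18), with 2.11 within set 1 and 2.23 within set 3. CBFA2T2 lies on chromosome 20, the chromosome of SALL4, with its median of 0.37. NACC1, a BTB-domain gene whose product binds NANOG and OCT4 in mouse ESCs, was at 5.44 and 1.88 CPM (1.16), with 2.01 within set 1 and 0.71 within set 3. Subunit genes of NuRD such as GATAD2A (0.83) and HDAC1 (0.62) were within 2-fold, and so was EZH2 of Polycomb (-0.63). In the 4 shallow ESC cells the summed level of this list was 2321 to 3014 CPM, against 4112 to 5158 CPM in the other 12 ESC cells.

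Of 25 family members and copies of the 8 genes, 19 were listed and 10 measured, of which none was 2-fold higher and PRDM15 was lower (3.35 CPM in ffEPSCs and 8.81 CPM in ESCs, -1.17), 10% of the list against 5.84% of all genes. Of 18 genes for signals and markers regulated by OCT4, SOX2 and NANOG, 16 were measured, with 6 higher by 2-fold or more (FGF4, NODAL, LEFTY2, GDF3, LEFTY1 and SPP1) and none lower. That is 37.5% of the list, against 8.3% of all genes. FGF4 passed the floor only through ffEPSCs, and LEFTY1 was under 2-fold within set 1 (0.83). SPP1, the osteopontin gene, stood at 322 CPM in ffEPSCs, against 146 CPM in ESCs (1.13), but its ratio was 0.05 in set 1 and -0.34 in set 3.

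Both states read the 8 other pluripotent stem cell markers of the list, SOX2, LIN28A, TDGF1, DNMT3B, PODXL, L1TD1, EPCAM and CDH1, with a summed level of 3820 to 6174 CPM per ffEPSC cell and 3659 to 6204 CPM per ESC cell. All 8 were within 2-fold over all cells. In the shallow ESC cells that sum was 3659 to 4070 CPM, against 4182 to 6204 CPM in the other ESC cells. Markers of other lineages were summed in the same way. Fibroblast markers (4 of 7 listed) summed to 39.2 to 420 CPM per ffEPSC cell and 61.2 to 636 CPM per ESC cell, most of it THY1, which human ESCs also express. That sum was 61.2 to 172 CPM in the shallow ESC cells and 334 to 636 CPM in the other 12, with no overlap. Trophoblast (3 of 6 listed) reached at most 16.9 and 24.5 CPM, with GATA2 and GATA3 at 0 in ESCs. Primitive endoderm (3 of 5) reached at most 23.3 and 18.3 CPM, with GATA4 at 0 in ESCs, mesoderm (3 of 5) 43.2 and 3.68 CPM, and amnion (2 of 3) 20.1 and 17.96 CPM. Neuroectoderm markers (4 of 5 listed) summed to 4.397 to 77.9 CPM per ffEPSC cell and 38.6 to 207 CPM per ESC cell. Their sum was 68.2 to 207 CPM in the shallow ESC cells and 38.6 to 137 CPM in the other 12, with FABP7, NES and MAP2 read and PAX6 at 0 in the shallow cells. The part of these markers in the levels of the 8 genes was not tested.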

How the data were processed

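Libraries were made with Smart-seq2, per the labels' protocols, and 1 table of whole-number gene counts per state was deposited by the authors without normalization. Per the submitters' processing notes, HISAT2 2.2.1, SAMtools 1.6, featureCounts and Subread 2.0.6 were used, with GRCh38 and T2T-CHM13 as builds. Annotation, strand and the handling of reads that match several places are not stated there. In the median cell 98.4% of non-zero counts were even, so the intervals are narrower than counts of separate fragments would allow. The repeat tables were not used here.

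Each of the 41 cells was kept. Counts were scaled to CPM per cell or over the summed counts of a state. Intervals are exact Poisson for levels and exact conditional binomial for folds. Correlations are Pearson r of log2(CPM + 1), without p-values. Coordinates and exon lengths come from GENCODE 29, which matched 21247 genes. TMM factors came from edgeR 4.0.16. Ratios and correlations were tested on simulated data. The 8 genes, the lists and the depth limit of 15000000 counts were chosen with earlier results of these data known. All 8 genes are named. From each list, genes were named among the 6 with the largest absolute ratio, plus SOX2, and the marker lists by their summed levels. For each gene above 20 CPM in both states, the 3 most alike genes were named.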

Additional observations from a re-analysis of the deposited data

How the results depend on the processing

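The count of genes 2-fold or more higher in ffEPSCs was 2 under every alternative except within set 3, where it was 1, since DPPA2 reversed to -0.45. The count 2-fold or more lower was 0 except within set 3, where ZFP42 made it 1. The median log2 ratio of the 8 genes, 0.26, was 0.33 with means of cells, 0.15 with medians of cells, 0.22 with TMM scaling, 0.50 within set 1, 0.10 within set 3 and 0.052 without the shallow ESC cells. With each cell left out in turn it ran from 0.21 to 0.31. The cause was not tested.

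In ffEPSCs the median r was 0.0889 with set means removed, and the count of pairs at 0.5 or more was 1 with that or with Spearman's rho. In ESCs the median r was 0.429 with Spearman's rho, 0.557 with set means removed, 0.286 given the cell total and 0.184 without the shallow cells, and the count was 6 and 4 under the last pair of settings. The median SD was 0.55 within sets in ffEPSCs (0.58 over all) and 0.52 without the shallow cells in ESCs (0.88 over all). With each cell thinned to 11000000 counts, the median r was 0.105 in ffEPSCs and 0.496 in ESCs. The median SD was then 0.58 and 0.88.

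Among the lists, 4 other transcription factor genes were higher at a floor of 20 CPM, and 2 were lower with no floor, within set 1, within set 3 or without the shallow cells. Chromatin partners had 0 higher at 20 CPM, and 5 higher and 1 lower within set 1. Within set 3, 1 signal gene was lower and 1 family gene higher, and at 20 CPM 0 family genes were lower. No paired analysis was possible because each state is 1 sample and cells carry no shared number beyond the set. UTF1 rests on 116 ESC counts. The order of genes per kb was also taken with copies added and without the shallow cells, both chosen after seeing the data.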
